A study of Mus musculus with 1507 samples.

Results

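The developmental pluripotency associated (Dppa) genes Dppa2, Dppa3, Dppa4 and Dppa5a were followed through every set of mouse RNA-seq libraries in which they could be read. The 4 genes were chosen by name from the 47643 genes that carry a name in the annotation used for quantification. The annotation holds 6 symbols that begin with Dppa, and the other ones, Dppa1 and the pseudogene Dppa3-ps, were kept for comparison only. The shared prefix does not mark 1 protein family.

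Dppa2 and Dppa4 encode SAP-domain nuclear proteins that act as a pair in pluripotent cells and are known to bind CpG-rich promoters and to favour genes of the early embryo. Dppa3, also called Stella, protects the maternal genome against loss of DNA methylation in the zygote and restrains the methylation cofactor Uhrf1, and it is known to be patchy among embryonic stem (ES) cells grown in serum. Dppa5a encodes a short KH-domain RNA-binding protein, also called Esg1, and is a relative of the oocyte genes Ooep and Khdc3.

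All cells were of the mouse ES line 5G6GR, which carries a randomly integrated transgene for Gata6 fused to the glucocorticoid receptor, and were grown without feeders in serum with leukemia inhibitory factor and puromycin. Dexamethasone, given in place of blasticidin, turns the fusion protein on and drives the cells towards primitive endoderm (PrE), so the PrE cells here are the product of 1 line and 1 inducible factor. Single cells were sorted into plates after 0, 12, 24, 48 and 72 h of dexamethasone (92, 91, 93, 87 and 93 cells), and untreated ES cells were also sorted by DNA content into G1, S and G2/M phase (93, 91 and 93 cells). A further 4 plates were called E1, E2, B1 and B2. Each held PrE cells (56, 54, 38 and 47) and untreated ES cells (40, 42, 58 and 49). By the protocol, the PrE cells had 72 h of dexamethasone. Another 39 PrE and 16 ES cells were on 1 microfluidic C1 chip. The other libraries used were made from purified ES cell RNA, at 10 pg, 1 ng, 10 ng or 1 µg. A lysate of 180 pooled G1 cells was also divided over wells. The series further holds 3 libraries depleted of ribosomal RNA and 3 poly(A)-selected libraries from 1 µg of PrE cell RNA. These PrE libraries were not analysed, since no columns of values could be tied to them by name. RamDA-seq, used for the single cells, covers polyadenylated as well as non-polyadenylated RNA and keeps no strand.

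The libraries carried the states that their labels gave. In the time course the mean level of the pluripotency factor Nanog was 1.26 TPM (the share of a transcript among all transcripts, per length) at 72 h, against 110 TPM at 0 h, while the PrE factors Gata4 and Sox17 were at 213 and 109 TPM at 72 h, against 0.540 and 0.0508 TPM at 0 h. Of 18 PrE markers, 17 were higher in PrE than in ES cells on the 4 plates, where 34.5% of all genes were. Of 8 trophoblast and 8 fibroblast markers only 1 and 2 reached the filter there. The median number of transcripts detected per cell was 37768 to 40983 at the 5 times and 28508 to 29066 on the 4 plates. On these plates 27 wells had far fewer transcripts than the rest (below the lower quartile of their set by more than 1.5 interquartile ranges), and results that rest on them are given with and without them.

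In mm10, Dppa4 (chromosome 16, 48283735 to 48294292) and Dppa2 (chromosome 16, 48310477 to 48319723) lie on the plus strand, 16185 bases apart. Dppa3 lies on the plus strand of chromosome 6 (122626410 to 122630272), next to Gdf3, and Dppa5a on the minus strand of chromosome 9 (78367052 to 78368177), beside Ooep. Dppa4 has 2 annotated transcripts, and the 156 bases that tell them apart are shown because the estimated share of each differed widely between sets of libraries. Capitals mark the bases present only in the longer transcript, Dppa4-202 (1534 bases in 7 exons), and absent from Dppa4-201 (1378 bases in 6 exons), on the plus strand of mm10.
Dppa4-202 exon 3, chr16:48289039-48289205: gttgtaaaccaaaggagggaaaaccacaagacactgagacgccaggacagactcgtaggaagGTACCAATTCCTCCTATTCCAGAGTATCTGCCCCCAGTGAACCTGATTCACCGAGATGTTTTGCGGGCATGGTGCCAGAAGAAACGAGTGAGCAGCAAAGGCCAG
Dppa4-202 exon 4, chr16:48289328-48289378: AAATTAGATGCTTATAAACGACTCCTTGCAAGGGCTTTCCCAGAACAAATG

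The members have near-identical copies elsewhere in the genome, so that reads can be shared. Of all words of 31 bases in a member's transcripts, 57.2% recur in other genes for Dppa5a, 45.1% for Dppa4, 42.1% for Dppa2 and 29.6% for Dppa3. The first 75 coding bases of Dppa5a (chr9:78368025-78368099, minus strand) are shown with those of its closest copies to make the likeness visible, with the bases that differ from Dppa5a in capitals.
Dppa5a: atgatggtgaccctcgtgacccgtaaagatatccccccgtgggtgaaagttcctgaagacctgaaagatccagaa
Gm6798, chromosome X: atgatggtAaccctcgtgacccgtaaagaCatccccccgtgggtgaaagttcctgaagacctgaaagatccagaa
Gm6083, chromosome 5: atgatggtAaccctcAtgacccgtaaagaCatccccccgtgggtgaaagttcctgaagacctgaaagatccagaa
Dppa5b and Dppa5c, chromosome 9: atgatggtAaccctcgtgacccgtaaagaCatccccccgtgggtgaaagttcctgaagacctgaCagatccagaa
Dppa5b and Dppa5c each differ from Dppa5a at 3 of these bases and were not in the annotation used to make the values, so any reads from them could only have been given to the genes that were. At 0 h the authors' estimates gave 1615 TPM to Dppa5a, 0.166 TPM to Gm6798 and 0.329 TPM to Gm6083. Of the genes that share words with Dppa5a, the highest at 0 h were Pigp (7.83 TPM) and Gm15310 (4.48 TPM), a pseudogene at the same place on chromosome 16. The largest copies of the other members at 0 h were Gm14058 for Dppa4 (10.3 TPM) and Gm9788 for Dppa2 (6.39 TPM). The levels of the members are uncertain to the extent that the estimates split such reads wrongly.

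The first question was how the members changed as ES cells turned towards PrE. The 4 genes followed 3 different courses. The mean of Dppa4 went down at each later time, and that of Dppa2 went up at 12 and 24 h and was low at 72 h. By the 2-fold rule below, neither gene was called at 12 or 24 h against 0 h. Dppa5a stayed among the most abundant transcripts throughout, and Dppa3 was detected in few cells at any time. The labels give no replicate culture for any time, so the cells of a time are not replicates. The SD below is over cells, no p-value can be given, and a gene is called higher or lower when its mean TPM, with 1 added, differed by at least 2-fold.

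Dppa4 had a mean of 50.9 TPM (SD 15.6) at 0 h, 43.9 TPM (SD 19.5) at 12 h, 28 TPM (SD 22.2) at 24 h, 8.77 TPM (SD 7.03) at 48 h and 3.53 TPM (SD 5.62) at 72 h. The lowest, median and highest cell had 16.1, 50.5 and 117 TPM at 0 h, 2.29, 20.6 and 116 TPM at 24 h, and 0, 1.35 and 33.8 TPM at 72 h. The lower ends thus parted, but the highest cells at 72 h still stood within the range of 0 h. All cells had at least 1 TPM of Dppa4 at 0 h (exact 95% binomial interval 96.1 to 100%), 94.3% (87.1 to 98.1%) did at 48 h, and 51 of 93 cells, 54.8% (44.2 to 65.2%), did so at 72 h. These intervals, and those that follow, cover counting error only. The mean was 11.5-fold lower at 72 h than at 0 h (log2 −3.52, or −4.46 between medians over cells) and 5.32-fold lower at 48 h than at 0 h (log2 −2.41), in both cases by more than the larger SD over cells.

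Dppa2, the partner of Dppa4, took another course in the first day. Its mean was 24.1 TPM (SD 10.4) at 0 h, 35 TPM (SD 17.7) at 12 h, 48.5 TPM (SD 36.4) at 24 h, 12.3 TPM (SD 27.7) at 48 h and 2.67 TPM (SD 6.50) at 72 h. The lowest, median and highest cell had 0.629, 21.3 and 57.8 TPM at 0 h, 2.04, 39 and 191 TPM at 24 h, and 0, 0.570 and 36.8 TPM at 72 h. The ranges of all times overlapped, and the SD was largest at 24 h. The highest cell of all was at 48 h, with 233 TPM, and the next at that time had 101 TPM, against a mean of 12.3 TPM. The mean at 24 h was 1.98-fold that at 0 h (log2 0.98), just short of the 2-fold limit (2.02-fold without the added 1 TPM), and the difference was smaller than the SD over cells at 24 h. At 48 h the mean was 3.73-fold lower than at 24 h (log2 −1.90), and at 72 h it was 6.82-fold lower than at 0 h (log2 −2.77, or −3.83 between medians over cells). The difference between 72 h and 0 h was larger than the larger SD over cells, and that between 48 h and 24 h was not. The share of cells with at least 1 TPM was 98.9% (94.1 to 100.0%) at 0 h, 87.4% (78.5 to 93.5%) at 48 h and 38.7% (28.8 to 49.4%) at 72 h.

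Dppa5a, the KH-domain gene, kept a high level. The mean was 1615 TPM (SD 370) at 0 h, 1334 TPM (SD 340) at 12 h, 1891 TPM (SD 492) at 24 h, 2309 TPM (SD 647) at 48 h and 1485 TPM (SD 447) at 72 h. The lowest, median and highest cell had 862, 1583 and 3752 TPM at 0 h, 323, 2351 and 3788 TPM at 48 h, and 401, 1483 and 2491 TPM at 72 h. The ranges overlapped at all times and every cell had far more than 1 TPM. By mean TPM the gene ranked 32nd, 36th, 28th, 24th and 34th at the 5 times among the 14979 to 16278 genes with a mean of at least 1 TPM. The difference between 72 h and 0 h was small (log2 −0.12), and no pair of times differed by 2-fold. The mean at 48 h was above that at 0 h by log2 0.52, which was more than the larger SD over cells.

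Dppa3 had a median of 0 TPM at every time, with means of 0.236, 0.269, 0.280, 0.201 and 0.0993 TPM from 0 to 72 h. The highest single cells had 8.31, 12.8, 3.55, 2.51 and 1.41 TPM. Cells with at least 1 TPM made up 7.61% (3.11 to 15.1%) at 0 h, 12.9% (6.85 to 21.5%) at 24 h and 2.15% (0.262 to 7.55%) at 72 h. The difference between these shares was not tested, since the cells of a time are not replicates. The gene did not reach the filter of a mean of 1 TPM and was neither called nor tested in single cells. Dppa1 had a mean of at most 0.0532 TPM and Dppa3-ps of at most 0.274 TPM at any time.

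**Figure D1:**
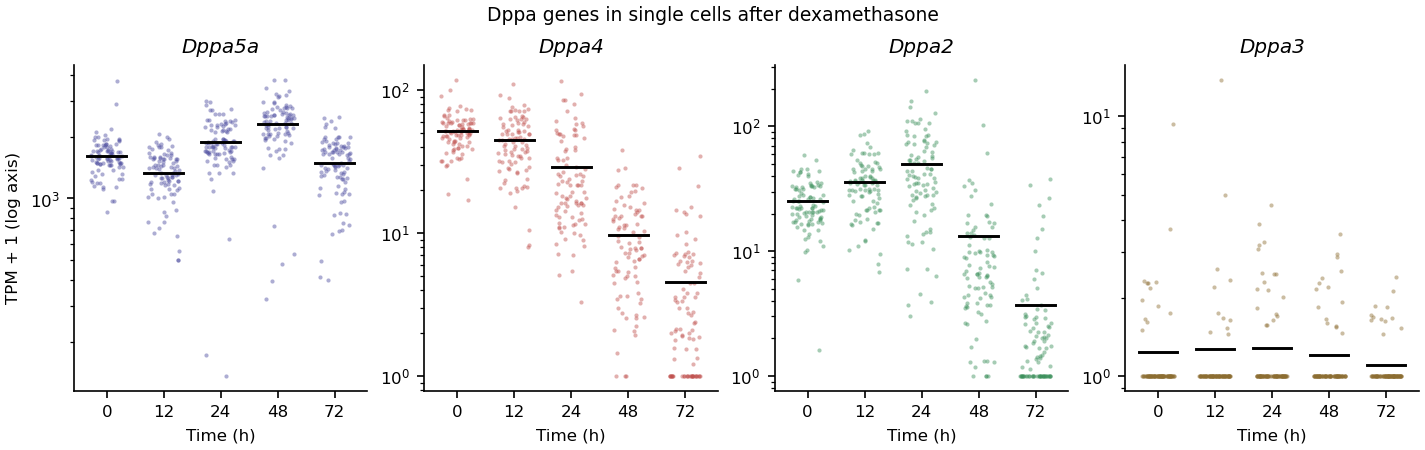
Level of each member in every cell by hours of dexamethasone (x axis, 0 to 72 h), as TPM + 1 on a log axis. Each dot is 1 cell and the black line is the mean of each time. Dppa4 goes down at each later time to a mean of 3.53 TPM at 72 h, Dppa2 peaks at 24 h at 48.5 TPM, Dppa5a keeps a mean of 1334 TPM or more, and most cells have no Dppa3.

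Set against all genes, the 3 members that passed the filter were called as follows. None was called at 12 h or 24 h against 0 h, where 3.13% and 9.16% of genes were higher and 5.39% and 6.12% lower. At 48 h against 0 h Dppa4 was lower, as were 10.2% of 17310 genes, while 13.5% were higher. At 72 h against 0 h Dppa4 and Dppa2 were lower, as were 12.8% of 17244 genes, while 13.4% were higher. Between neighbouring times, both were lower at 48 h against 24 h, where 3.36% of genes were lower and 3.69% higher, and at 72 h against 48 h, where 2.61% were lower and 1.24% higher. Neither was called at 24 h against 12 h, where 1.52% of genes were lower and 5% higher, though Dppa4 reached the limit there between medians over cells (log2 −1.01, against −0.63 between means). On the log2 scale Dppa4 differed by −1.11 at 72 h against 48 h and by −1.57 at 48 h against 24 h, but between medians by −1.74 and −1.46. For Dppa2 the same steps were −1.86 and −1.90, and −1.83 and −1.62 with inner wells only, so the order of the steps turned with the setting for both genes.

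Dppa2 and Dppa4 lie next to each other, and their levels moved together within each time while their ratio shifted between times. TPM is scaled by transcript length, but the method and reads shared with copies may still weigh the 2 genes differently. At 0 h Gm9788 had 26.6% of the level of Dppa2, and Gm14058 had 20.3% of that of Dppa4. Which gene was truly the higher in a cell is therefore not settled by these values. Dppa2 was above Dppa4 in 2 of 92 cells at 0 h (2.17%, 0.264 to 7.63%), in 20 of 91 at 12 h (22%), in 72 of 93 at 24 h (77.4%, 67.6 to 85.4%), in 39 of 87 at 48 h (44.8%) and in 24 of 93 at 72 h (25.8%). The median over cells of the log2 ratio of Dppa2 to Dppa4 was −1.18, −0.34, 0.66, −0.22 and −0.29 at these times. By estimated TPM, Dppa4 was the higher of the pair in nearly all cells at 0 h and Dppa2 in most cells at 24 h, and by 48 h the balance had moved back.

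Across cells, the correlation of log2(TPM + 1) of Dppa2 and Dppa4 was r = 0.57 at 0 h (92 cells), 0.78 at 12 h (91), 0.59 at 24 h (93), 0.54 at 48 h (87) and 0.58 at 72 h (93). Cells of a time share their culture and plate, and both levels carry the cell's depth. At 72 h, 27 of 93 cells had at least 1 TPM of both genes, 9 of Dppa2 only, 24 of Dppa4 only and 33, or 35.5%, of neither. At 48 h, 73 of 87 cells still had both. For comparison, Dppa4 and Dppa5a had r = −0.19 at 0 h and 0.69 at 12 h, and Dppa2 and Dppa5a had 4.26e-05 and 0.68. No steady relation was thus seen with Dppa5a.

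Over all 456 cells of the 5 times, the 5 genes with the highest correlation to Dppa2 among 11239 genes were Gm13157 (r = 0.83), Tcl1 (0.83), Dppa4 itself (0.82), Ly6g6e (0.82) and Ltbp4 (0.81). Tcl1 encodes a coactivator of the kinase Akt and belongs to the naive pluripotency genes. For Dppa4 the 5 closest were Gm38312, Gm43558, Ltbp4, Gm43041 and Cd59b, all at r = 0.84. Dppa5a had lower values, led by the ribosomal protein gene Rpl4 (0.70) and by Ppp1ca (0.69), a catalytic subunit of protein phosphatase 1. Dppa3 reached only r = 0.26, with Pramel7, which in counts this sparse is no finding. All of these values hold the difference between times as well as that between cells.

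Genes of related function were counted in the same way, and these lists, like the members, were chosen with earlier results of these data known. At 72 h against 0 h, 12.8% of all genes were lower and 13.4% higher. Of 20 core and naive pluripotency genes, 15 were lower and 0 higher, with a median log2 difference of −4.18 where the median of all genes was −0.02. All 18 PrE markers were higher (median 5.07). Among the 3 oocyte KH-domain and subcortical complex genes that passed the filter, Ooep (log2 −2.75) and Khdc3 (log2 −5.18), relatives of Dppa5a, were lower, whereas Tle6 was not called (log2 0.30). Ooep, the neighbour of Dppa5a, had means of 12.7, 13.5, 12.3, 2.34 and 1.04 TPM at the 5 times. Germline genes are a class with known Dppa2 and Dppa4 targets. Of 15 on the list, 9 passed the filter, and 5 of these were lower. Of 11 DNA methylation genes 4 were lower, among them Uhrf1 (log2 −1.46), the protein that Dppa3 restrains, and Tet1 (log2 −3.26), while Tet3 was higher (log2 1.24).

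The genes around Dppa3 did not share its low level. At 0 h Nanog had a mean of 110 TPM and Gdf3, a growth factor gene of pluripotent cells, had 22.3 TPM. Gdf3 was at 0.274 TPM at 72 h. Between Dppa4 and Dppa2 and inside Dppa2, the authors' merged gene models, which were quantified in 421 cells after the authors had left out outlying cells, hold transcripts without a gene name. Of the pair within Dppa2, the first (chr16:48312171-48313244) had means of 0.838, 0.980, 1.12, 0.599 and 0.583 TPM at the 5 times. The other (chr16:48315090-48315529) had means of 1.62, 3.22, 5.36, 1.41 and 0.990 TPM. Both had their highest mean at 24 h, as did Dppa2. Each has 1 exon and lies within the span of Dppa2, and RamDA-seq keeps no strand. Separate transcripts and unspliced RNA of Dppa2 itself therefore cannot be told apart here. The one that ends just before Dppa2 (chr16:48303855-48310363) had 2.28, 1.65, 0.858, 0.565 and 0.311 TPM, with its highest level at 0 h. Of the others between the 2 genes, chr16:48299598-48300025 was also highest at 0 h (1.25 TPM). Those at chr16:48297837-48299126, chr16:48300347-48300706 and chr16:48301133-48301450 were highest at 12 h (0.989, 1.32 and 1.52 TPM). In the merged models the members had the same order of times. Dppa2 was at 20.1, 32.8, 41.6, 10.2 and 2.33 TPM and Dppa4 at 42.6, 42, 23.7, 7.49 and 3.07 TPM.

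The second question was whether the members follow the cell cycle in untreated ES cells. No member was called between any 2 phases. Dppa4 had a mean of 40.4 TPM (SD 14.3) in G1, 42 TPM (SD 17.9) in S and 51 TPM (SD 17.8) in G2/M. Dppa5a had 1126 TPM (SD 401), 1075 TPM (SD 312) and 900 TPM (SD 263) in the same order. Dppa2 was lowest in S, with 17.8 TPM (SD 9.40) in G1, 12.3 TPM (SD 8.81) in S and 17.6 TPM (SD 8.73) in G2/M. The lowest, median and highest cell for Dppa2 had 0.703, 17.4 and 45 TPM in G1, 0, 10.4 and 48.6 TPM in S and 1.43, 17.6 and 43.7 TPM in G2/M, so the phases overlapped widely.

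For G2/M against G1 the log2 difference was 0.33 for Dppa4 and −0.32 for Dppa5a, and for S against G1 it was −0.50 for Dppa2. Each was smaller than the SD over cells. Few genes at all were called in these cells: 1.08% higher and 0.134% lower for G2/M against G1, 0.585% and 0.357% for S against G1, and 0.717% and 0.318% for G2/M against S. The sort itself was visible, since 6 of 6 G2/M genes were higher in G2/M than in G1 (median log2 2.43). Dppa3 had means of 0.151, 0.257 and 0.177 TPM in G1, S and G2/M.

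**Figure D2:**
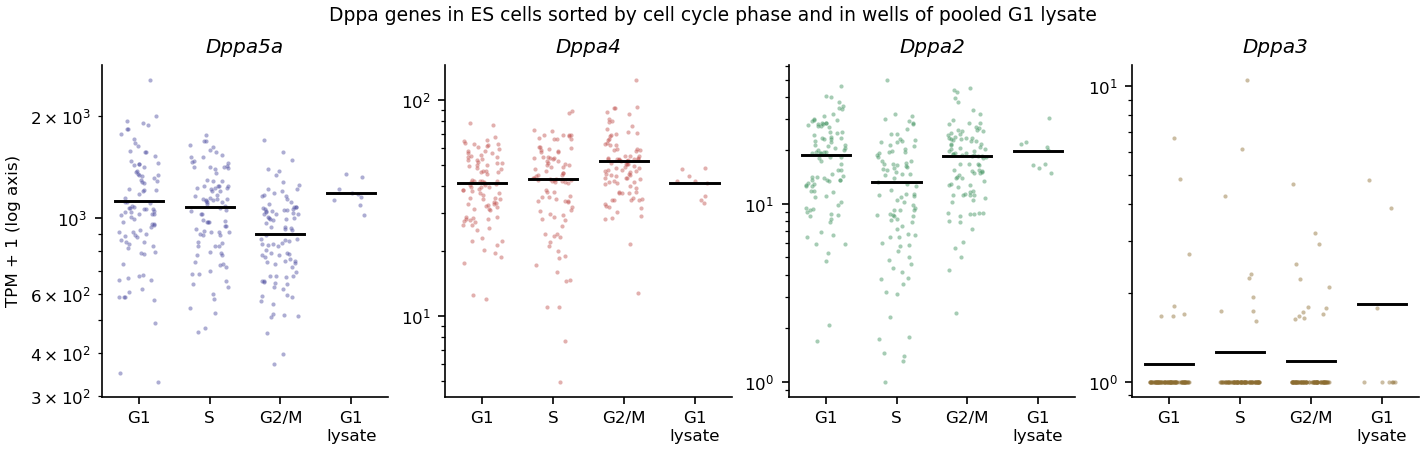
Level of each member in every ES cell by phase of the cell cycle and in wells of pooled G1 lysate (x axis, G1, S, G2/M and G1 lysate), as TPM + 1 on a log axis. Each dot is 1 cell, or 1 well for the lysate, and the black line is the mean. The clouds of the 3 phases overlap for every member, with Dppa2 lowest in S at a mean of 12.3 TPM.

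The wells of divided lysate show how much the method alone spreads the values at the RNA amount of 1 cell. Dppa5a had 1126 TPM (SD 401) over 93 G1 cells and 1182 TPM (SD 101) over 9 lysate wells, where the lowest, median and highest well had 1024, 1175 and 1346 TPM. Dppa4 had 40.4 TPM (SD 14.3) in the G1 cells and 40.1 TPM (SD 5.54) in the wells, which ran through 32.3, 41.1 and 47.5 TPM. Dppa2 had 17.8 TPM (SD 9.40) in the cells and 18.9 TPM (SD 4.80) in the wells, which ran through 13.9, 19.1 and 29.4 TPM. The mean levels lay close together, while single cells spread more widely than the wells. The coefficient of variation (SD over mean) of cells was 4.15 times that of wells for Dppa5a, 2.57 times for Dppa4 and 2.07 times for Dppa2. Over 16041 genes the median of this ratio was 1.29, and cells had the larger value for 78.3% of genes.

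The third comparison, between PrE and ES cells on the 4 plates, has replicates. The mean of each plate and cell type was taken as 1 value, giving 4 values for each type, and all genes were tested with limma on log2(mean TPM + 1). The labels do not say that the plates came from separate cultures, so the p-values measure the spread between these plates, which may be technical. Dppa4 and Dppa2 fell in PrE cells, and Dppa5a did not pass the test. At an adjusted p under 0.05, 25.3% of 17418 genes were lower and 34.5% higher, or 59.8% in all, so being called was the common state of a gene in this comparison.

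Dppa4 had plate means of 7.31, 5.71, 5.36 and 8.58 TPM in PrE cells, against 55.7, 49.2, 44.3 and 211 TPM in ES cells, in the order E1, E2, B1 and B2. The types did not overlap. The log2 difference was −3.24 (SE 0.46, limma adjusted p = 0.000285), or 9.47-fold. The value of 211 TPM came from 1 ES well of plate B2 with 8308 TPM of Dppa4 and only 66 detected transcripts. Without the wells of few transcripts the plate means were 7.48, 5.71, 5.51 and 9.84 TPM in PrE cells, against 57.1, 49.2, 48.3 and 50.3 TPM in ES cells, and the log2 difference was −2.71. Among these kept cells, 78.8 to 82.9% of PrE cells and 100% of ES cells had at least 1 TPM.

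Dppa2 had plate means of 3.91, 4.26, 4.17 and 3.23 TPM in PrE cells, against 15.9, 13.7, 11.1 and 11.7 TPM in ES cells. The types did not overlap, and all 4 plates showed the same direction. The log2 difference was −1.52 (SE 0.13, limma adjusted p = 1.09e-05), or 2.86-fold. Among kept cells 56.1 to 67.6% of PrE cells and 97.6 to 100% of ES cells had at least 1 TPM.

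Dppa5a had plate means of 2541, 2187, 5114 and 1900 TPM in PrE cells, against 2075, 1826, 2084 and 2334 TPM in ES cells. PrE was higher on 3 plates and lower on B2, and the groups overlapped. The log2 difference of 0.39 (SE 0.29, limma adjusted p = 0.271) did not pass. The mean of 5114 TPM rested on 1 PrE well of plate B1 with 122084 TPM of Dppa5a and 23 detected transcripts. Without the wells of few transcripts the means were 2608, 2235, 1953 and 2177 TPM in PrE cells, against 2128, 1826, 1832 and 1729 TPM in ES cells, with PrE higher on all 4 plates. The log2 difference was then 0.25 (SE 0.10, adjusted p = 0.0504), and with the plate as a block 0.25 (SE 0.04, adjusted p = 0.00317), a combination chosen after the data were seen. With inner wells only, also chosen after the data were seen, it was 0.07 (adjusted p = 0.732), or 0.21 (adjusted p = 0.300) with the wells of few transcripts left out as well.

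Dppa3 had plate means of 0.127, 0.186, 0.210 and 0.0569 TPM in PrE cells, against 0.0858, 0.160, 0.0880 and 0.145 TPM in ES cells, and was below the filter. Among the lists, 15 of 20 pluripotency genes were lower in PrE than in ES cells (median log2 −3.59, all genes 0.09) and Sall4 was higher (log2 0.75). In the oocyte group Ooep (log2 −2.49) and Khdc3 (log2 −3.92) fell and Tle6, a corepressor of the Groucho family, rose (log2 1.24). Of 11 DNA methylation genes 5 rose, among them Dnmt3b (log2 1.43), and 3 fell, among them Uhrf1 (log2 −1.83). Of all genes, 34.5% were higher and 25.3% lower, so the counts of DNA methylation genes are not read as a result about that list.

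**Figure D3:**
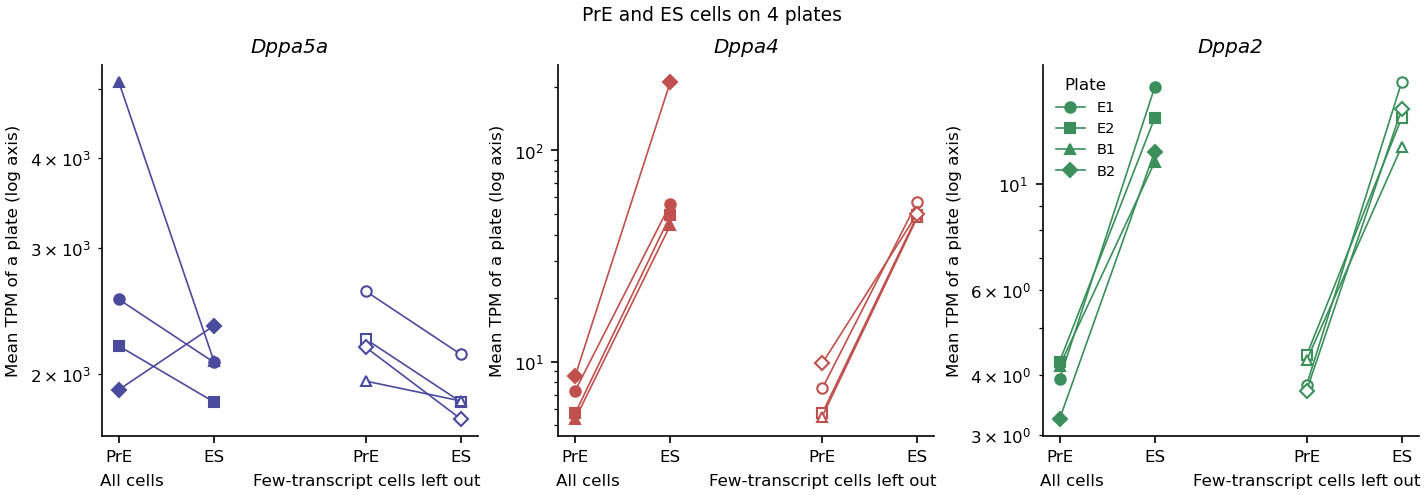
Plate means (y axis, TPM on a log axis) of Dppa5a, Dppa4 and Dppa2 in PrE cells, left, and ES cells, right, on plates E1 (circle), E2 (square), B1 (triangle) and B2 (diamond). Filled symbols use all cells, open symbols leave out wells of few detected transcripts, and lines join the 2 means of a plate. Leaving these wells out brings Dppa4 on plate B2 down to 50.3 TPM in ES cells and Dppa5a on plate B1 to 1953 TPM in PrE cells.

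Dppa5a also differed with the place of a well on these plates. After the values were seen, wells at the rim of the 96-well format (outer wells) were compared with the rest (inner wells), with the wells of few transcripts left out. The median of Dppa5a was 3663 TPM in outer against 1868 TPM in inner wells for PrE cells of plate E1. For ES cells of plate B1 it was 3237 TPM in outer against 1011 TPM in inner wells. The ratio of outer to inner medians, with 1 TPM added, was 1.64 to 3.20 in the 8 sets of plate and cell type, and the ranges of outer and inner wells overlapped in each set. Of 5209 genes with a mean of at least 10 TPM in all 8 sets, 1 was at least 1.5-fold higher in outer wells in all 8, and that gene was Dppa5a. Other genes differed by more: Dppa5a ranked 20th by the mean difference over the 8 sets and 62nd to 228th in single sets, where 3.42 to 6.71% of genes were at least 1.5-fold higher.

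The same comparison was made where the wells held no cells. In a full plate of 96 wells with 10 pg of ES cell RNA, the median of Dppa5a was 2019 CPM (estimated counts scaled to an equal total) in 36 outer wells against 1143 CPM in 60 inner wells (ratio 1.77), and 0.541% of genes were at least 1.5-fold higher in outer wells. In the C1 sets, whose cDNA was made on a chip, grouping by the same well names gave ratios of 0.985 for C1-RamDA-seq and 1.01 for C1-SMART-Seq v4. In the time course the ratio was 1.03 to 1.19 and in the phase plates 0.955 to 1.16. The 4 plates were made with an altered version of the RamDA-seq protocol, with another supplier of T4 gene 32 protein and a shorter incubation, and the sources used here do not say which version the full plate had. The ratio ran through 1.04 to 1.99 for Dppa2 and 0.789 to 2.88 for Dppa4 in the 8 plate sets. What sets the difference between wells was not tested.

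**Figure D4:**
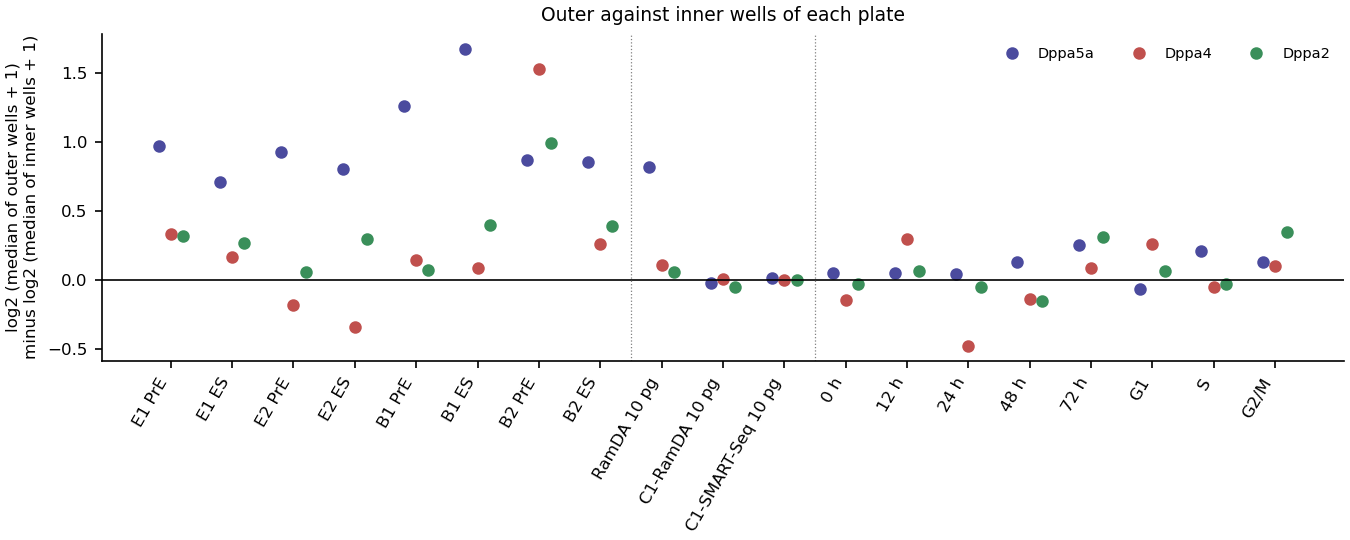
Difference between the medians of outer and inner wells (log2, with 1 added to each median) of Dppa5a, Dppa4 and Dppa2 for 8 sets of plate and cell type, 3 full sets of 10 pg wells, 5 times and 3 phases. Dppa5a lies well above 0 in all 8 plate sets and in the full RamDA-seq plate, and near 0 in the C1 sets.

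On the C1 chip the same cell types were compared on 1 chip, with no replicate, so values are given without a test. Dppa4 had 16.1 TPM (SD 13.3) in 39 PrE cells and 85.3 TPM (SD 25.7) in 16 ES cells. The lowest, median and highest cell had 0, 14.2 and 66.2 TPM among PrE cells, against 44.3, 83.3 and 129 TPM among ES cells, so only the upper PrE cells reached the ES range. Its mean was 5.06-fold lower in PrE cells (log2 −2.34), more than the larger SD over cells. Dppa2 had 13.3 TPM (SD 21.8) in PrE cells and 26.6 TPM (SD 10.9) in ES cells, with a range of 0 to 121 TPM in PrE cells that covered the ES range of 8.63 to 44 TPM. Its log2 difference of −0.95 fell short of the 2-fold limit, but passed it between medians over cells (−1.53) and when genes that share sequence were added (−1.19).

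Of the 3 members that passed the filter on the chip, Dppa4 was called lower between means and Dppa2 was not, against 12.8% of 17480 genes lower and 17.7% higher. Dppa5a had 2881 TPM (SD 728) in PrE cells and 2492 TPM (SD 654) in ES cells (log2 0.21), and the ranges overlapped. Dppa3 had 0.191 TPM in PrE cells and 0.204 TPM in ES cells. Dppa2 and Dppa4 had r = 0.58 over the PrE cells and 0.47 over the ES cells, which shared the chip. Other pairs reached similar values: Dppa2 and Dppa5a had r = 0.29 and 0.61, and Dppa4 and Dppa5a 0.44 and 0.04, in the same order.

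The remaining comparisons asked how the method of library preparation reads the members in the same kind of ES cell RNA. The libraries of a group were made from diluted or divided RNA and the labels name no separate cultures, so the p-values cover technical spread. Counts estimated per transcript were summed per gene, rounded and tested with edgeR, and levels are given as CPM, which is not scaled by length and so is not compared between genes. In purified RNA from many cells, fewer cells with a transcript and less RNA per cell cannot be told apart. Total estimated counts were 5706348 to 8962910 per library in the sets of a few libraries and 645120 to 956848 in the full sets.

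From 10 pg, Dppa5a had 929, 871 and 885 CPM with RamDA-seq, against 6816, 6104, 6039 and 6765 CPM with SMART-Seq v4, which primes from the poly(A) tail. No library overlapped. The log2 difference was −2.18 (SE 0.07, edgeR adjusted p = 3.05e-06), 4.54-fold lower in RamDA-seq. Dppa4 had 75.5, 57 and 78.3 CPM with RamDA-seq, against 228, 196, 132 and 257 CPM with SMART-Seq v4. The libraries did not overlap, and the log2 difference of −0.87 (SE 0.29, adjusted p = 0.0938) did not pass. When scaled by library size alone it was −1.53 (adjusted p = 0.00895), and by DESeq2 −0.78 (adjusted p = 0.0242). Dppa2 had 71.3, 47.6 and 75.2 CPM with RamDA-seq, against 127, 113, 184 and 125 CPM with SMART-Seq v4, a log2 difference of −0.42 (SE 0.29, adjusted p = 0.462), or −1.08 (adjusted p = 0.0381) by library size alone.

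For all genes together, the median log2 difference in this 10 pg comparison was 0.12, and it was −0.54 when scaled by library size alone. Of 12566 genes, 14.1% were called, 6.62% lower and 7.43% higher. Of the 3 members tested, 1 was among the lower ones. Dppa3 had 0.701, 0 and 0.183 CPM with RamDA-seq, against 10.5, 0, 0 and 0.228 CPM with SMART-Seq v4, and was not tested. With C1-RamDA-seq from 10 pg, 4 libraries had 720 to 786 CPM of Dppa5a, 79.5 to 116 CPM of Dppa4 and 23.1 to 50.7 CPM of Dppa2.

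From 1 µg, libraries depleted of ribosomal RNA (rdRNA-seq) were set against poly(A)-selected ones (paRNA-seq), and the members differed little. Dppa5a had 1387, 1357 and 1441 CPM in rdRNA-seq, against 1529, 1526 and 1533 CPM in paRNA-seq. Its log2 difference after scaling between libraries was 0.18 (SE 0.02, edgeR adjusted p = 5.70e-05), but −0.13 (adjusted p = 0.00927) by library size alone, where the median of all genes was −0.31. The direction thus turned with the scaling. Dppa4 had 106, 103 and 114 CPM in rdRNA-seq, against 131, 123 and 125 CPM in paRNA-seq (log2 0.09, adjusted p = 0.105, and −0.23, adjusted p = 0.00200, by library size alone). Dppa2 had 112, 107 and 123 CPM in rdRNA-seq, against 123, 143 and 132 CPM in paRNA-seq (log2 0.10, adjusted p = 0.172, and −0.22, adjusted p = 0.00935, by library size alone).

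These 1 µg libraries were the only set in which Dppa3 passed the filter. It had 2.27, 1.22 and 1.61 CPM in rdRNA-seq, against 2.12, 1.90 and 1.90 CPM in paRNA-seq, and the log2 difference of 0.10 (SE 0.30, edgeR adjusted p = 0.816) did not pass and was −0.21 by library size alone. In this comparison 49.9% of 14347 genes were called, 23.8% higher and 26% lower, and 1 of the 4 members, Dppa5a, was. By library size alone, 3 of the 4 were called, all lower in rdRNA-seq.

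From 1 ng, RamDA-seq gave higher values than rdRNA-seq for Dppa5a and Dppa4. Dppa5a had 1705, 1547 and 1611 CPM with RamDA-seq, against 1155, 1123 and 1142 CPM with rdRNA-seq (log2 0.40, SE 0.06, edgeR adjusted p = 3.14e-05). Dppa4 had 120, 128 and 127 CPM with RamDA-seq, against 91.3, 89.1 and 81.3 CPM with rdRNA-seq (log2 0.40, SE 0.08, edgeR adjusted p = 0.000773). Neither gene overlapped between the methods. Dppa2 had 83.5, 92.7 and 95.7 CPM with RamDA-seq, against 77.8, 74.2 and 79 CPM with rdRNA-seq, which also did not overlap, but the log2 difference of 0.12 (SE 0.08, adjusted p = 0.257) did not pass. Of 14769 genes, 38% were called, 18.2% higher and 19.8% lower, and 2 of the 3 members tested were higher. Libraries of 10 ng by rdRNA-seq had means of 1123 CPM for Dppa5a, 91.5 CPM for Dppa4 and 74.2 CPM for Dppa2.

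Full sets of wells with 10 pg of RNA showed how steadily each member was detected. Dppa2, Dppa4 and Dppa5a had an estimated count of at least 1 in every one of 96 RamDA-seq, 95 C1-RamDA-seq and 94 C1-SMART-Seq v4 wells. Dppa3 did so in 7.29% (2.98 to 14.4%), 8.42% (3.71 to 15.9%) and 22.3% (14.4 to 32.1%) of these wells. Dppa5a had 1463 CPM (SD 433) with RamDA-seq, 941 CPM (SD 50.8) with C1-RamDA-seq and 4676 CPM (SD 222) with C1-SMART-Seq v4. Its coefficient of variation was 0.296, 0.0540 and 0.0476 in these sets, the first being the plate with the difference between outer and inner wells. Dppa4 averaged 104, 139 and 199 CPM and Dppa2 49.6, 59.98 and 163 CPM in the same order.

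The share of Dppa4 given to the shorter transcript Dppa4-201, which lacks the bases in capitals above, varied with the set of libraries. It is an estimate from reads that the 2 transcripts mostly share. The shares given here come from TPM in cells and lysate wells and from counts in the libraries of purified RNA. It was 37.1, 35.2, 48.3, 63.2 and 64.3% of the summed Dppa4 level from 0 to 72 h, so the share of the shorter form was larger at the times when the gene was low. In G1, S and G2/M cells it was 31.9, 36.1 and 35.1%, and 31.4% in the lysate wells. On the 4 plates it was 79.9, 78.5, 79 and 89% in PrE cells, against 77.8, 81, 81.4 and 95.7% in ES cells. The last of these was raised by the single well with 8308 TPM. The median over the cells with the gene was 100% on all 4 plates in PrE cells, against 78.4, 82.3, 85.9 and 84.7% in ES cells. The share of the summed level was above that of every time of the time course in both cell types, and whether the cell types differed was not tested. On the C1 chip it was 73.1% in PrE cells and 66.1% in ES cells.

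In libraries of purified RNA the shares lay further apart. From 10 pg, Dppa4-201 took 19.9% with RamDA-seq and 72.5% when RamDA-seq was run on the C1, against 8.38% with SMART-Seq v4. It took 71.7% in RamDA-seq and 1.15% in rdRNA-seq from 1 ng. From 1 µg it took 1.14% in rdRNA-seq and 2.84% in paRNA-seq. In the full sets it was 65.1% on the RamDA-seq plate, and on the C1 it was 76.8% with RamDA-seq and 14% with SMART-Seq v4. Whether the transcripts or the estimates differed between methods was not tested.

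**Figure D5:**
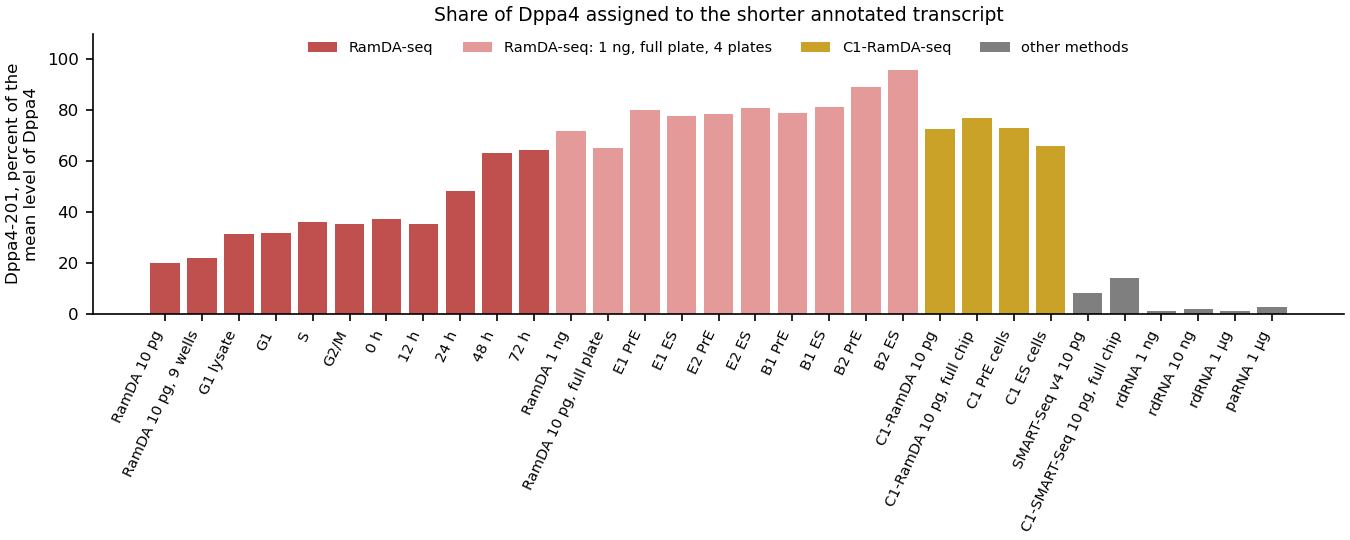
Share of the Dppa4 level given to Dppa4-201 (percent, bars from 0) in each set of libraries, from TPM for cells, lysate and wells and from estimated counts for the other RNA libraries. The bars run from 1.14% in rdRNA-seq of 1 µg to 95.7% in ES cells of plate B2.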

How the data were processed

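The members and gene lists were chosen with earlier results of these data known. The authors estimated the abundance of GENCODE vM9 transcripts (mm10) with Sailfish and deposited TPM for single cells and estimated counts per transcript for the purified RNA libraries, where 8 columns that matched no analysed sample by name were not used. The deposited TPM values hold no depth. Here transcripts were summed per gene. The labels gave all groups. RamDA-seq, C1 and SMART-Seq libraries were single reads on a NextSeq and the 1 µg libraries were paired reads on a HiSeq.

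The filter in single cells was a mean of at least 1 TPM in either group compared, and the pseudocount was 1. Plate means were tested with limma 3.58.1, and rounded counts without ERCC spike-ins with edgeR 4.0.16 (TMM scaling, quasi-likelihood), both with Benjamini-Hochberg adjustment over all genes (R 4.3.3); DESeq2 1.42.0 was an alternative. Python 3.11.15, pandas 2.3.3 and scipy 1.17.1 served the rest. For the likeness of patterns, genes were required to have a mean of at least 5 TPM. Wells and cells were not treated as replicates. Sequences came from GENCODE vM21 transcripts on the same genome build.

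Each plate held both PrE and ES cells, so its label pairs them. Deviations of the same plate from the means of the types correlated at r = 0.0772, 0.0406, 0.0663 and 0.0247, and at 0.328, 0.223, 0.298 and 0.188 without wells of few transcripts. Tested on simulated data with 200 genes changed by a log2 value of 1, the plate comparison recovered 78% of them, the 10 pg comparison 67.5%, the 1 µg comparison 53% and the 1 ng comparison 57%. Unchanged genes called numbered 4, 11, 8 and 8 in this order. The simulated counts had a fixed dispersion that was not taken from the data, and the simulated plates had the SD of the ES plates only. These shares check the procedure and do not measure the power of the real comparisons. Alternatives were the scaling, the filter, the pseudocount, the detection limit, means or medians over cells, the replicate block, wells left out, copies summed and each replicate left out.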

Additional observations from a re-analysis of the deposited data

Results flagged for a closer look

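In 24 groups of 4 to 10 values of the members, 4 had an end value far from the rest. Chance alone gives about 5% of groups when values are normally spread. That rate does not hold for Dppa3, where most values were at or near 0 and a single higher value is flagged by the rule itself. The plate mean of Dppa4 in ES cells was 211 TPM on plate B2, against 44.3 to 55.7 TPM on the other 3 plates. Dppa2 had 29.4 TPM in 1 lysate well, against 13.9 to 21.3 TPM in the other 8. Dppa3 had 1.42 TPM in 1 of 9 wells with 10 pg of RNA, and 0 in the others. Dppa3 had 10.5 CPM in 1 SMART-Seq v4 library from 10 pg, against 0 to 0.228 CPM in the other 3.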

How the results depend on the processing

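Under the alternatives tried, Dppa2 and Dppa4 stayed lower in PrE than in ES cells on the plates and kept their call, with log2 differences of −2.24 to −1.43 for Dppa2 and −3.48 to −2.64 for Dppa4 over 19 alternatives each. Dppa5a had 0.07 to 0.62 and passed in 3 of them, all added after the data were seen and all without the wells of few transcripts: with the replicate block 0.25 (limma adjusted p = 0.00317), and with plates left out, where values ran from 0.23 to 0.31 and passed without plate E1 (0.24) or B1 (0.31). With all wells and without plate B1 it was 0.08. The block of plates changed no other call there (Dppa2 −1.52, Dppa4 −3.24, Dppa5a 0.39). In the other comparisons the libraries share only a number (r between same-numbered libraries −0.084 to 0.021), and with the replicate block genes called from 10 pg numbered 291, against 1766 without it. From 10 pg the count was also 3548 with DESeq2, 993 without the filter and 564 to 1972 with libraries left out, the lowest without RamDA-seq library 1 (564), 2 (600) or 3 (580).

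From 10 pg, by library size only, Dppa2 had −1.08 and Dppa4 −1.53, and Dppa4 had −0.78 with DESeq2 and −1.01 to −0.70 with libraries left out, where it passed without SMART-Seq v4 library 3. From 1 µg, library size only turned Dppa2 to −0.22, Dppa3 to −0.21, Dppa4 to −0.23 and Dppa5a to −0.13, and no filter turned Dppa4 to −0.000412. With libraries left out Dppa3 ran from −0.17, without rdRNA-seq library 1, to 0.27, and Dppa2 from 0.04 to 0.15, where it passed without paRNA-seq library 2. From 1 ng, Dppa2 had 0.24 by library size only (adjusted p = 0.0381). Genes called higher and lower numbered 934 and 832 from 10 pg, 3420 and 3737 from 1 µg and 2693 and 2921 from 1 ng, and 735 and 1793, 1399 and 7657, and 3526 and 2275 by library size only. With a pseudocount of 0.1 Dppa3 had log2 differences of −0.60 at 72 h against 48 h and −0.75 against 0 h. Between medians over cells, Dppa4 and Dppa2 had −4.46 and −3.83 at 72 h against 0 h, and the 2-fold limit was reached by Dppa4 at 24 h against 12 h (−1.01) and by Dppa2 in C1 PrE against ES cells (−1.53, or −1.19 with genes that share sequence). With a pseudocount of 0.1, Dppa2 differed by −2.16 at 72 h against 48 h and by −1.97 at 48 h against 24 h. Of 80 shares of cells at limits of 0.1 or 10 TPM, 30 lay outside the interval of the share at 1 TPM. At a count of at least 10, Dppa3 was found in 5.32% of the full C1-SMART-Seq v4 set and in 0% of both other sets of wells. The causes were not tested. Dppa3 was under 1 TPM in most single cells, and the TPM values hold no depth by which to judge what that limits.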

Other observations

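Genes of the 2-cell-like state, a rare state of ES cells in which genes of the 2-cell embryo are active and which Dppa2 and Dppa4 are known to favour, were summed per cell over the 18 annotated members of the list. At 48 h 1 of 87 cells had a sum of 2938 TPM, where the median cell had 0.312 TPM, and 17 of the 18 genes reached 1 TPM in it. Zfp352 had 294 TPM and Tcstv1 366 TPM there. This cell had the second highest Dppa2 at 48 h (101 TPM), 20.6 TPM of Dppa4, 0 TPM of Dppa3, Gata4 and Sox17, and the 3rd lowest Dppa5a (477 TPM). It had 22976 detected transcripts, against a median of 38793 at that time. The cell with the highest Dppa2 at 48 h (233 TPM) had the next sum of the 2-cell genes, 19.2 TPM, with 621 TPM of Nanog and 0.147 TPM of Gata4. The highest sums at 0, 12, 24 and 72 h were 5.10, 5.17, 6.16 and 40.3 TPM. These are single cells chosen after their values were seen.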
